A study of Mus with 12 samples.

Results

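The genes for Fc receptors and the first enzymes of Syk signalling were followed in mouse whole blood. The members were taken by gene name and are Fcgr1, Fcgr2b, Fcgr3, Fcgr4, Fcer1g, Fcer2a, Syk, Lyn and Ptpn6, that is 9 of the 25247 genes in the deposited table. Of these, 8 passed the filter on low values, which asks for an FPKM of 1 or more in 3 or more libraries, as did 5527 genes in all. FPKM is the fragment count of a gene per kilobase of its length, scaled to the depth of the library.

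Blood was taken at the end of the experiment from female BALB/c mice that were 6 weeks old at purchase, and there were 3 libraries per group. Whether each library came from a single mouse is not given in the sources used here, and each is called a mouse below. Solvent mice received only the vehicle, acetone and olive oil, on the shaved back and the right ear. DNCB mice were sensitised there with 1% 2,4-dinitrochlorobenzene, a hapten that provokes contact allergy, and were then challenged repeatedly with 0.5%, which gives skin lesions like those of atopic dermatitis. The scMSC and scivMSC mice had the same DNCB schedule and during the challenge also received 4 doses of human umbilical cord mesenchymal stem cells (MSCs), cells of another species. Each dose was given as 100 µL under the skin (scMSC) or as 50 µL under the skin and 50 µL into the tail vein (scivMSC), with the same number of cells by either route. There was no group given cells without DNCB, so the cells and the sensitiser cannot be separated in either MSC group. The study kept 6 mice per group, and 3 libraries per group are analysed here.

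Antibody bound to antigen is read by Fc receptors on white blood cells. Activating receptors pass the signal through an immunoreceptor tyrosine-based activation motif (ITAM), carried for many of them by the common gamma chain Fcer1g. A Src family kinase such as Lyn phosphorylates that motif, the kinase Syk docks on it and starts phagocytosis, degranulation and cytokine release, and inhibitory receptors recruit phosphatases such as Ptpn6 (SHP-1) that oppose it. Neutrophils and monocytes carry most of the activating IgG receptors in blood, while B cells carry the low affinity IgE receptor Fcer2a (CD23) and the inhibitory IgG receptor Fcgr2b.

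Total estimated counts lay between 52179764 and 65139421 per library, and haemoglobin genes took 91.3% to 95.6% of summed FPKM. The level of every white cell gene is therefore a share of a library that is mostly red cell RNA, and fewer cells of a type cannot be told apart from less RNA per cell. Marker genes of blood cell types were summed in each library. The 10 neutrophil markers summed to 217 to 442 FPKM in Solvent, 6629 to 10447 in DNCB, 543 to 692 in scMSC and 221 to 664 in scivMSC. The 10 monocyte markers summed to 61.7 to 186 FPKM in Solvent, 411 to 664 in DNCB, 85.7 to 95.6 in scMSC and 80.7 to 112 in scivMSC. Lyz2 made up most of this sum, with means of 101, 483, 77.6 and 82.5 FPKM in the same order of groups. By group mean, the other monocyte markers except F13a1 were lower in scivMSC than in scMSC, such as Csf1r at 0.550 against 2.23. From Solvent to DNCB, Cx3cr1 (0.681 to 0.303) and Nr4a1 (1.80 to 1.39) went down by mean, while the others of this list went up. The 8 B cell markers summed to 43.2 to 137 FPKM in Solvent, 12.1 to 34.3 in DNCB, 13.5 to 18.8 in scMSC and 3.43 to 8.13 in scivMSC. The 8 T cell markers summed to 51.2 to 93.4 FPKM in Solvent and 7.36 to 39.6 over the other 9 libraries, and the 5 NK cell markers in the table to 24.8 to 29.9 FPKM and 4.01 to 12.9. The 8 platelet markers summed to 367 to 583 FPKM in Solvent and 568 to 893 elsewhere. No marker of these 6 lists was at 0 in all 3 libraries of a group except Ms4a6d of the monocyte list in scivMSC. The part of these shifts in the values below was not tested.

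**Figure D1:**
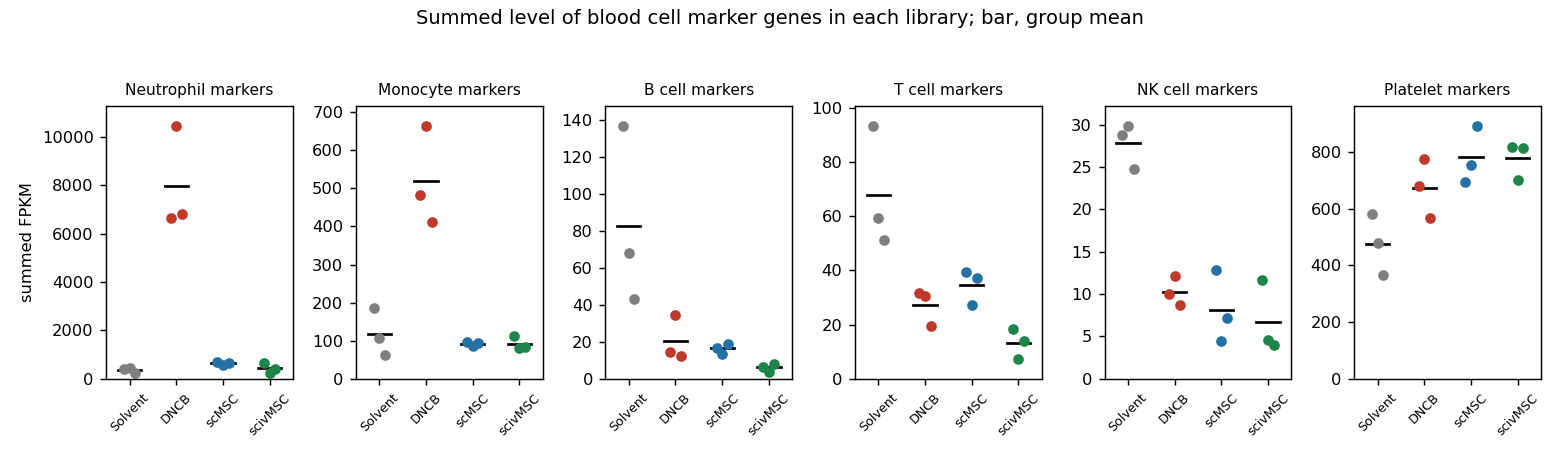
Summed FPKM of marker genes of 6 blood cell types in each library (y axis, each panel from 0) for the 4 groups (x axis); points are mice and bars are group means. The neutrophil sums are 6629 to 10447 in DNCB and at most 692 in any other library, while the B cell sums are highest in Solvent and lowest in scivMSC.

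The changes were tested with edgeR's quasi-likelihood test over all 12 libraries, scaled by total counts, and a gene was called at a Benjamini-Hochberg adjusted p under 0.05 and a change over 2-fold. With this scaling the median log2 fold change of all genes tested was 0.06 for DNCB against Solvent. For the MSC groups it was below 0, at -0.63 (scMSC) and -1.53 (scivMSC) against DNCB, at -0.59 (scMSC) and -1.47 (scivMSC) against Solvent, and at -0.87 between scivMSC and scMSC. With the trimmed mean of M values (TMM), which centres the bulk of genes, these medians lay between -0.09 and 0.06. Changes are therefore given below on the log2 scale and, where the median moved, also relative to the median gene. DNCB mice are a shared reference for the MSC comparisons, so the fall after MSCs and the rise after DNCB rest on the same 3 libraries. Groups without overlap were common. Of all genes tested, 25.0% had all DNCB mice above all Solvent mice and 16.5% had them below. All scMSC mice lay below all DNCB mice for 49.8%, and all scivMSC mice for 67.9%. Against Solvent these shares were 40.6% and 62.6%, while 7.00% had scMSC above Solvent. For 46.7%, scivMSC lay below scMSC.

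In DNCB against Solvent, 5 of the 8 members tested were called higher, where 15.6% of all genes tested were, and 1 was called lower, where 4.87% were. The genes called higher were the activating receptors Fcgr3 and Fcgr4, the common gamma chain Fcer1g, and the kinases Lyn and Syk, and the gene called lower was Fcer2a. Fcer2a would not have passed the filter without the Solvent mice, so its call is not independent of the filter. Fcgr2b and Ptpn6, which act against the signal, were not called. TMM scaling called the same 6 members, against 16.1% of genes called higher and 11.5% called lower. The study's own gene list, which was chosen on these libraries, holds Fcer1g, Fcgr1, Fcgr2b, Fcgr3, Fcgr4, Ptpn6 and Syk, so the direction of these genes is not independent evidence.

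**Figure D2:**
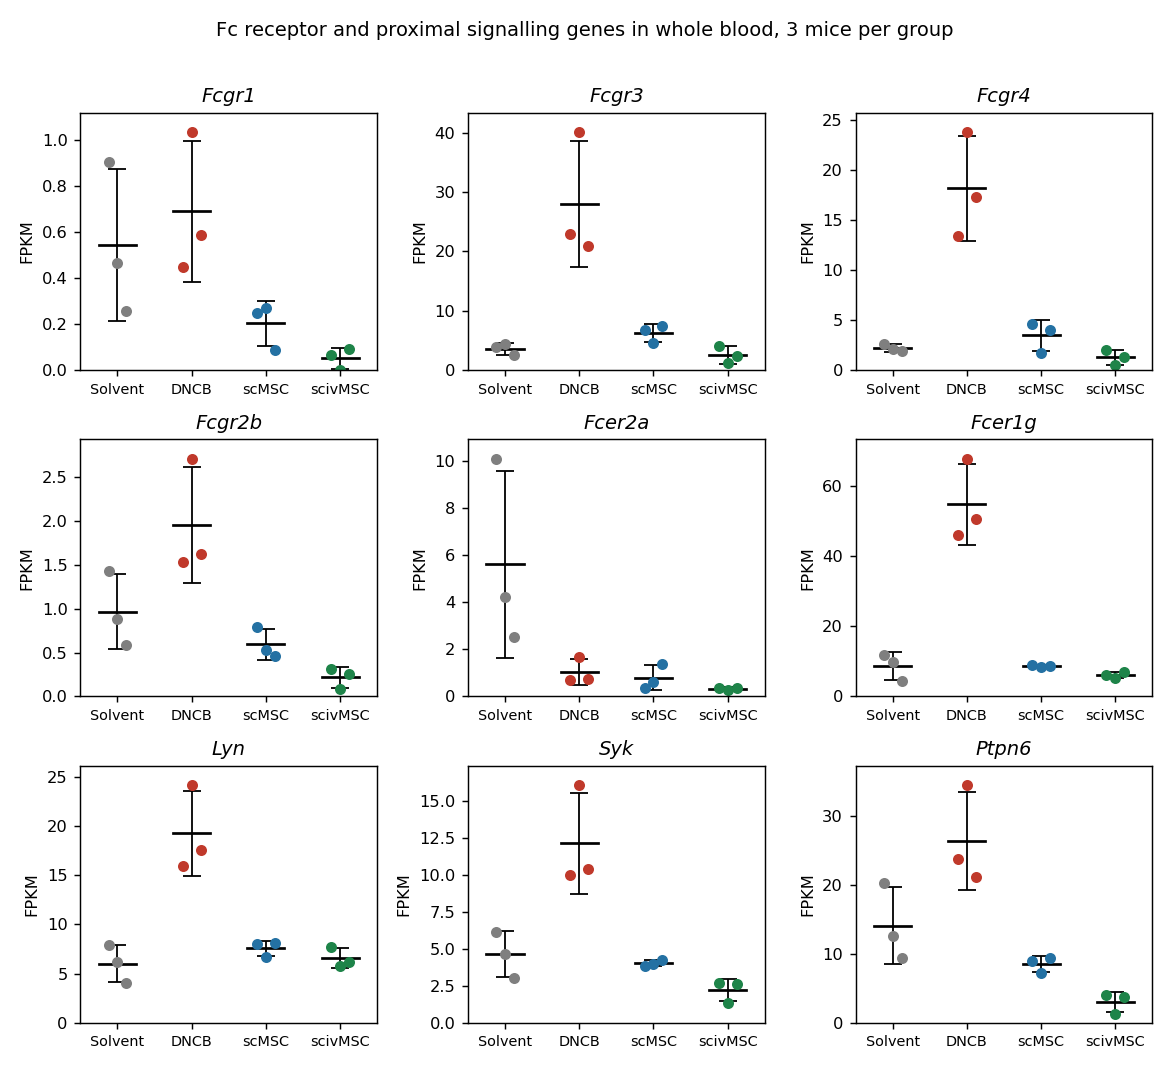
FPKM of the 9 genes in each of the 12 libraries (y axis, each panel from 0) by group (x axis); points are mice, bars the mean and error bars the SD, n = 3. For Fcgr3, Fcgr4, Fcer1g, Lyn and Syk all 3 DNCB mice lie above the other 9, as they do by a small margin for Fcgr2b and Ptpn6. Fcer2a is highest in the 3 Solvent mice. Of all genes tested, 25.0% had DNCB above Solvent without overlap and 16.5% below.

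Fcgr3 encodes the low affinity activating IgG receptor of mouse neutrophils, monocytes and natural killer cells (ENSMUSG00000059498, chromosome 1, 171051174 to 171064935, minus strand, in the coordinates of the deposited table). Its FPKM was 3.83, 4.36 and 2.45 in the Solvent mice, 22.9, 40.1 and 20.9 in DNCB, 6.69, 4.45 and 7.42 in scMSC, and 4.04, 1.13 and 2.35 in scivMSC. All DNCB mice lay above all others, and the scMSC mice lay above the Solvent mice while the scivMSC mice overlapped them. The DNCB mean, 28.0 ± 10.6 (SD, n = 3), was 7.88 times the Solvent mean of 3.55 ± 0.983 (SD, n = 3). The log2 fold change was 2.98 ± 0.45 (SE), with an edgeR adjusted p of 0.000187.

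Fcgr4, an activating receptor of mouse myeloid cells for IgG2a and IgG2b, lies near Fcgr3 (ENSMUSG00000059089, chromosome 1, 171018920 to 171029761, plus strand). Its FPKM was 2.61, 2.04 and 1.88 in Solvent, 13.4, 23.8 and 17.3 in DNCB, 4.601, 1.72 and 3.99 in scMSC, and 1.97, 0.451 and 1.31 in scivMSC. The DNCB mice stood above the rest, and both MSC groups overlapped Solvent. The DNCB mean was 8.33 times the Solvent mean, a log2 fold change of 3.05 ± 0.51 (SE), edgeR adjusted p = 0.000392.

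Fcgr1, the high affinity IgG receptor of monocytes and macrophages (ENSMUSG00000015947, chromosome 3, 96282909 to 96293969, minus strand), was close to the detection limit. Its FPKM was 0.902, 0.465 and 0.256 in Solvent, 0.447, 1.03 and 0.587 in DNCB, 0.249, 0.267 and 0.0882 in scMSC, and at most 0.0885 in scivMSC. Solvent and DNCB overlapped, and all MSC mice lay below all DNCB mice. It reached an FPKM of 1 in only 1 library, DNCB replicate 2, and so did not pass the filter. Its estimated counts were 10, 0 and 14 in the scivMSC mice against 72 to 170 in DNCB. Without a filter, edgeR gave 0.34 ± 0.78 (SE) in DNCB against Solvent, adjusted p = 0.921, and -3.66 ± 0.89 (SE) in scivMSC against DNCB, adjusted p = 0.00176.

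Fcgr2b, the inhibitory IgG receptor (ENSMUSG00000026656, chromosome 1, 170958617 to 170976547, minus strand), was low as well. Its FPKM was 1.43, 0.882 and 0.584 in Solvent, 1.53, 2.71 and 1.62 in DNCB, 0.797, 0.526 and 0.465 in scMSC, and 0.318, 0.0814 and 0.252 in scivMSC. The DNCB mice lay above the Solvent mice with little space between 1.53 and 1.43. The log2 fold change was 1.01 ± 0.48 (SE) with an edgeR adjusted p of 0.157, and with TMM it was 0.89, adjusted p = 0.0208 but below 2-fold. Only in the fit of these 6 libraries alone was Fcgr2b called, at 1.01 and adjusted p = 0.0399. It passed the filter through the 3 DNCB mice and Solvent replicate 1, so its presence among the genes tested depends on the DNCB group. The extracellular parts of Fcgr2b and Fcgr3 are closely similar in sequence, and reads shared between them may have been split or lost in counting.

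Fcer1g (ENSMUSG00000058715, chromosome 1, 171229572 to 171234365, minus strand) was the most abundant member in DNCB. Its FPKM was 11.9, 9.70 and 4.30 in Solvent, 46.0, 67.9 and 50.5 in DNCB, 8.95, 8.27 and 8.71 in scMSC, and 6.21, 5.35 and 6.98 in scivMSC. The DNCB mice stood apart from all others, the 3 scMSC mice were close together inside the Solvent range, and the scivMSC mice lay below the scMSC mice. The DNCB mean of 54.8 ± 11.6 (SD, n = 3) was 6.36 times the Solvent mean of 8.62 ± 3.90 (SD, n = 3). This was a log2 fold change of 2.67 ± 0.37 (SE), edgeR adjusted p = 7.89e-05, the smallest adjusted p among the members in this comparison. Besides Fc receptors, the chain pairs with the platelet collagen receptor Gp6.

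Fcer2a, the IgE receptor of B cells (ENSMUSG00000005540, chromosome 8, 3681737 to 3694175, minus strand), moved against the rest. Its FPKM was 10.1, 4.21 and 2.53 in Solvent, 0.678, 1.68 and 0.749 in DNCB, 0.362, 0.620 and 1.38 in scMSC, and 0.365, 0.251 and 0.371 in scivMSC. Every Solvent mouse lay above every other mouse, and the Solvent mice were spread widely. The DNCB mean was 0.184 times the Solvent mean, a log2 fold change of -2.43 ± 0.57 (SE), edgeR adjusted p = 0.00601. Without Solvent replicate 1 it was -1.69, adjusted p = 0.0471. It reached an FPKM of 1 in the 3 Solvent mice and 2 others and would not have passed the filter without the Solvent group. The 7 B cell markers tested were all called lower in the same comparison, where 4.87% of all genes tested were. Of these markers, 3 would not have passed without Solvent either.

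Lyn and Syk are the kinases that write and read the phosphorylated motif. Lyn (ENSMUSG00000042228, chromosome 4, 3678115 to 3813122, plus strand) had an FPKM of 7.87, 6.14 and 4.08 in Solvent, 16.0, 24.2 and 17.6 in DNCB, 7.998, 6.72 and 8.09 in scMSC, and 7.76, 5.75 and 6.23 in scivMSC. Only the DNCB mice stood apart, and the other 3 groups overlapped. Syk (ENSMUSG00000021457, chromosome 13, 52583173 to 52648792, plus strand) had an FPKM of 6.16, 4.67 and 3.06 in Solvent, 9.96, 16.1 and 10.4 in DNCB, 3.85, 3.98 and 4.25 in scMSC, and 2.67, 1.35 and 2.63 in scivMSC. For Syk the scivMSC mice lay below every other mouse. From Solvent to DNCB the log2 fold change was 1.68 ± 0.30 (SE) for Lyn, edgeR adjusted p = 0.000696, and 1.39 ± 0.33 (SE) for Syk, adjusted p = 0.00601. These changes were smaller than those of the receptors Fcgr3 and Fcgr4 and of Fcer1g, and the difference between Fcer1g and Syk is tested below as a ratio.

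Ptpn6, the phosphatase that inhibitory receptors recruit (ENSMUSG00000004266, chromosome 6, 124720707 to 124738625, minus strand), was the most abundant member in Solvent. Its FPKM was 20.2, 12.5 and 9.36 in Solvent, 23.6, 34.4 and 21.1 in DNCB, 8.91, 7.21 and 9.34 in scMSC, and 3.99, 1.28 and 3.75 in scivMSC. The 4 groups did not overlap, in the order DNCB, Solvent, scMSC and scivMSC, although the highest scMSC mouse, 9.34, and the lowest Solvent mouse, 9.36, were nearly level. The rise from Solvent to DNCB was 0.91 ± 0.39 (SE) on the log2 scale, edgeR adjusted p = 0.112, and was not called. With TMM it was 0.79, adjusted p = 0.0126 and below 2-fold.

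By mean FPKM, which is per length of gene, the order of the members changed between groups. In Solvent it was Ptpn6, Fcer1g, Lyn, Fcer2a, Syk, Fcgr3, Fcgr4, Fcgr2b and Fcgr1, and the ranges of neighbours in that order overlapped except between Fcgr4 and Fcgr2b. In DNCB it was Fcer1g, Fcgr3, Ptpn6, Lyn, Fcgr4, Syk, Fcgr2b, Fcer2a and Fcgr1. Fcer1g stood clear of its neighbour there, with a lowest value of 46.0 against a highest of 40.1 for Fcgr3, and Syk stood clear of Fcgr2b, while the other neighbours overlapped. In scMSC Fcer1g, Ptpn6 and Lyn led at means of 8.65, 8.48 and 7.60 FPKM, and the ranges of these neighbours overlapped. In scivMSC Lyn led at 6.58 ± 1.05 (SD, n = 3), followed by Fcer1g at 6.18 ± 0.814 (SD, n = 3), and their ranges overlapped. All 3 scivMSC mice had more Lyn and more Fcer1g than Ptpn6, which had a mean of 3.01.

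In scMSC against DNCB, 7 of the 8 members tested were called lower, where 24.9% of all genes tested were. Among them Fcgr2b would not have passed the filter without the DNCB mice, so its fall is not independent of the filter. Fcer1g fell by 2.67 ± 0.37 (SE) on the log2 scale, edgeR adjusted p = 0.000138, and its scMSC mean was 0.158 times the DNCB mean. Fcgr4 fell by 2.41 ± 0.49 (SE), adjusted p = 0.00224, and Fcgr3 fell by 2.19 ± 0.43 (SE), adjusted p = 0.00192. Fcgr2b fell by 1.71, Ptpn6 fell by 1.65, Syk fell by 1.60 and Lyn fell by 1.35, with adjusted p from 0.00243 for Syk to 0.0165 for Fcgr2b. Fcer2a, at -0.41 and adjusted p = 0.594, was not called, and it was at 0.34 with TMM. Relative to the median gene the changes were -2.04 for Fcer1g, -1.78 for Fcgr4, -1.55 for Fcgr3, -1.08 for Fcgr2b, -1.01 for Ptpn6, -0.97 for Syk and -0.72 for Lyn. TMM called 4 members lower, Fcer1g, Fcgr4, Fcgr3 and Fcgr2b, where 12.3% of genes were. The Fcgr2b call was lost without DNCB replicate 2 (adjusted p = 0.0906), scMSC replicate 2 (0.0747) or scMSC replicate 3 (0.0766).

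In scivMSC against DNCB all 8 members tested were called lower, but so were 62% of all genes tested. The call of Fcgr2b is again not independent of the filter, which it passed only with the DNCB mice. The fall was 3.86 ± 0.53 (SE) for Fcgr4, which decreased by 2.33 relative to the median gene, and edgeR gave it an adjusted p of 1.78e-05. Fcgr3 fell by 3.47, Fcer1g fell by 3.15, Fcgr2b fell by 3.13 and Ptpn6 fell by 3.13, each at least 1.60 below the median gene. Syk fell by 2.46, which is -0.93 relative to the median gene. Lyn, at -1.55, and Fcer2a, at -1.65, moved like the median gene, at -0.03 and -0.12 relative to it, and with TMM their direction turned, at 0.12 for Lyn and 0.04 for Fcer2a. TMM called 5 members lower, Fcgr4, Fcgr3, Fcgr2b, Ptpn6 and Fcer1g, against 18.9% of genes. The Fcer2a call was lost without DNCB replicate 2 (-1.11, adjusted p = 0.117).

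**Figure D3:**
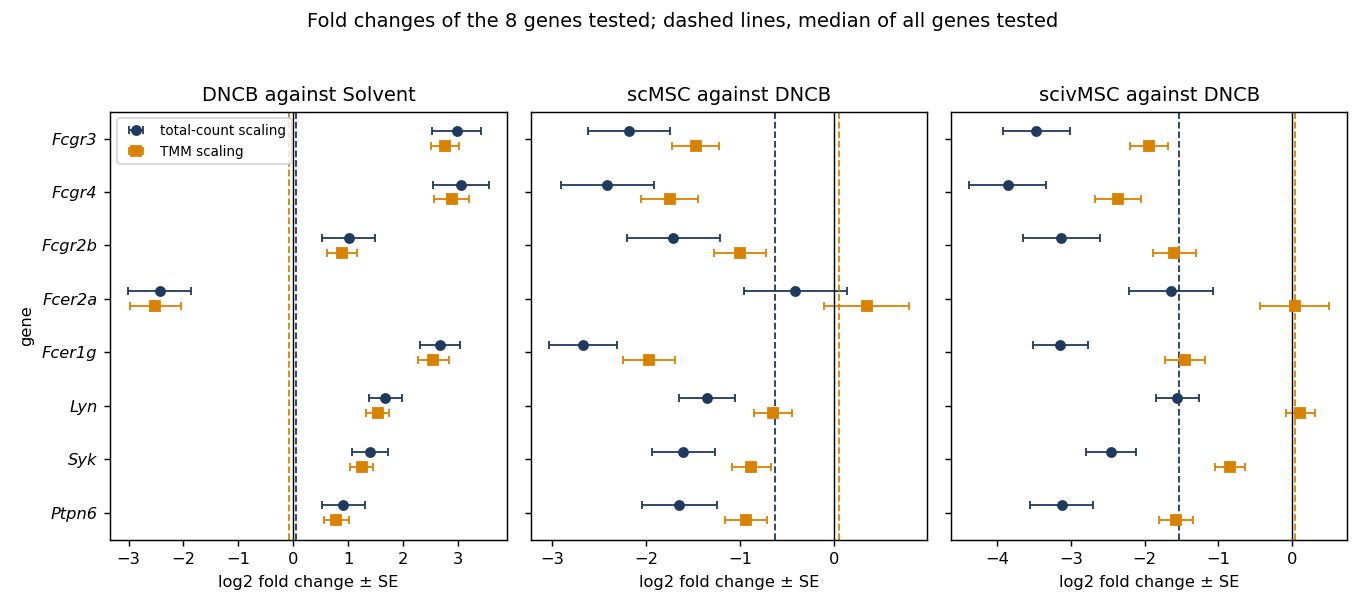
Log2 fold change ± SE (x axis) of the 8 members tested (y axis) in 3 comparisons, with total-count scaling (circles) and TMM scaling (squares); dashed lines are the median of all 5527 genes tested under each scaling. In scivMSC against DNCB the circles of Lyn and Fcer2a lie on the all-gene median and their squares lie near 0, while Fcgr4, Fcgr3, Fcgr2b, Ptpn6 and Fcer1g lie below the median under both scalings.

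Against Solvent the members did not all return to the same place. In scMSC against Solvent only Fcer2a was called, at -2.84 ± 0.59 (SE) and an edgeR adjusted p of 0.0377, where 0.326% of genes were called lower. Fcer2a would not have passed the filter without the Solvent mice, so this call is not independent of the filter. That call was lost when any of Solvent replicates 1 and 2, DNCB replicate 1 or the 3 scMSC replicates was left out, with adjusted p between 0.0504 and 0.213. It was also lost with a replicate block, at -2.83 and adjusted p = 0.0714. With TMM, Fcer2a was lower at -2.17, where 1.21% of genes were called lower, and Fcgr3 and Fcgr4 were called higher, at 1.29 (adjusted p = 0.00603) and 1.13 (adjusted p = 0.0264), where 7.29% of genes were called higher. With total-count scaling Fcgr3 stood at 0.79 and Fcgr4 at 0.64, and neither was called.

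In scivMSC against Solvent, 4 of the 8 members tested were called lower, where 59.2% of genes were: Fcer2a at -4.08, Ptpn6 at -2.22, Fcgr2b at -2.12 and Syk at -1.06. Fcer2a passed the filter only with the Solvent mice. The Syk call was lost without Solvent replicate 1 (-0.80, adjusted p = 0.0550) or scivMSC replicate 2 (-0.80, below 2-fold). Without scivMSC replicate 1, Fcgr3 at -1.02 and Fcgr4 at -1.30 were called as well. Lyn stood at 0.12, Fcer1g at -0.48, Fcgr3 at -0.50 and Fcgr4 at -0.81. Relative to the median gene these 4 were at 1.59, 0.99, 0.97 and 0.66. With TMM, Lyn at 1.65 (adjusted p = 4.98e-05) and Fcer1g at 1.10 (adjusted p = 0.00491) were called higher, where 22.4% of genes were. Fcer2a at -2.47 was called lower, where 13.4% were, while Fcgr3, Fcgr4 and Syk turned positive below the call. Of the platelet markers, 4 of 8 were called higher here with total-count scaling, where 2.59% of genes were. With TMM all 8 were called higher, where 22.4% of genes were. The part of the platelet markers in the Lyn and Fcer1g values was not tested.

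The combined route was compared directly with the subcutaneous route. In scivMSC against scMSC, 4 of 8 members were called lower, where 30.4% of genes were: Ptpn6 at -1.48 ± 0.40 (SE), edgeR adjusted p = 0.0161, Fcgr4 at -1.45, Fcgr2b at -1.42 and Fcgr3 at -1.29. Relative to the median gene these were -0.61, -0.58, -0.55 and -0.42. TMM called 0 members, where it called 13.1% of genes higher and 4.92% lower. With TMM and with DESeq2, which also called 0, the same 2 members were under an unadjusted 0.05, Ptpn6 at -0.64 with TMM and Lyn at 0.77. With TMM the edgeR adjusted p of Ptpn6 was under 0.05 as well, but its change was below 2-fold. The fit of these 6 libraries alone called 0 as well, with 5 members under an unadjusted 0.05. Without scMSC replicate 1 edgeR called 0 of the 4, at adjusted p from 0.0536 for Ptpn6 to 0.145 for Fcgr2b. The Fcgr3 and Fcgr4 calls were also lost without scMSC replicate 3, scivMSC replicate 2 or scivMSC replicate 3, and without scivMSC replicate 2 Fcgr3 stood at -0.93. Fcgr2b lost its call without any of these and also without scMSC replicate 2, Solvent replicate 2, DNCB replicate 1 or DNCB replicate 3.

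Ratios between members within a library do not depend on how libraries are scaled. The summed FPKM of the 3 activating IgG receptors Fcgr1, Fcgr3 and Fcgr4 was divided by that of the inhibitory Fcgr2b. Fcgr1 did not pass the filter and was at most 1.03 FPKM, so the sum is mostly Fcgr3 and Fcgr4. Fcgr2b would not have passed without the DNCB mice, and it was as low as 0.0814 FPKM (27 counts) in scivMSC replicate 2. The test of this ratio is therefore not independent of the filter and rests on low values of Fcgr2b. The ratio was 5.12, 7.78 and 7.86 in the Solvent mice, 24.02, 23.9 and 23.9 in DNCB, 14.5, 12.2 and 24.7 in scMSC, and 19.1, 19.4 and 14.9 in scivMSC. It was higher in all 9 mice given DNCB, with or without MSCs, than in the Solvent mice, and the scMSC mice overlapped the DNCB mice. Over the 4 groups an exact permutation test of the F statistic gave p = 0.00409, also after adjustment over the 3 ratios tested. Pairs of 3 against 3 cannot go below 0.1, which scMSC and scivMSC against Solvent both reached (differences of 1.27 and 1.38 on the log2 scale, exact permutation test). Against DNCB, scMSC differed by -0.55 (exact p = 0.4) and scivMSC by -0.44 (exact p = 0.1).

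Fcer1g over Syk sets the receptor chain against the kinase that docks on it. The ratio was 1.93, 2.08 and 1.40 in Solvent, 4.62, 4.22 and 4.86 in DNCB, 2.32, 2.08 and 2.05 in scMSC, and 2.32, 3.97 and 2.66 in scivMSC. All DNCB mice lay above all other mice, Solvent and scMSC overlapped, and the scivMSC mice lay above the Solvent mice. Tested over all 4 groups, the exact permutation p was 0.00026, or 0.000682 adjusted over the 3 ratios.

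Syk over Ptpn6 sets the kinase against the phosphatase. The ratio was 0.305, 0.373 and 0.327 in Solvent, 0.421, 0.467 and 0.493 in DNCB, 0.433, 0.552 and 0.455 in scMSC, and 0.670, 1.05 and 0.701 in scivMSC. The Solvent mice were lowest, DNCB and scMSC overlapped, and the scivMSC mice were highest. The test over the 4 groups gave an exact permutation p of 0.000455, or 0.000682 adjusted. Lyn over Ptpn6 was 0.439 ± 0.0506 (SD, n = 3) in Solvent, 0.738 ± 0.0854 in DNCB, 0.899 ± 0.0331 in scMSC and 2.69 ± 1.55 in scivMSC, with no overlap between the 4 groups. No test was run on this last ratio.

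**Figure D4:**
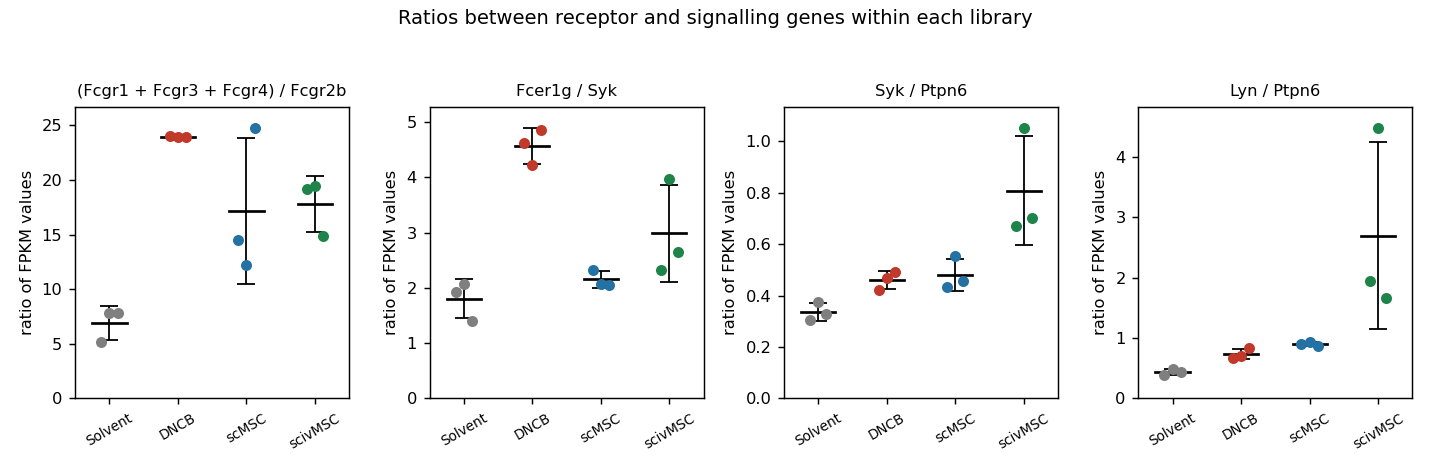
Ratios of FPKM values between members within each library (y axis, each panel from 0) by group (x axis); points are mice, bars the mean and error bars the SD, n = 3. The activating to inhibitory receptor ratio is 5.12 to 7.86 in Solvent and at least 12.2 in the other 9 mice, and Syk over Ptpn6 is highest in scivMSC, at 0.670 to 1.05.

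Members were also set against Ptprc (CD45), the surface phosphatase of all white blood cells, whose mean FPKM was 7.34 ± 0.698 in Solvent, 10.9 ± 1.89 in DNCB, 5.38 ± 0.525 in scMSC and 1.74 ± 0.914 in scivMSC (SD, n = 3). Per unit of Ptprc, Fcer1g was at 1.15 ± 0.439 in Solvent, 5.04 ± 0.612 in DNCB, 1.62 ± 0.164 in scMSC and 4.41 ± 2.48 in scivMSC. The scMSC mice lay below the DNCB mice, and the scivMSC mice, from 2.44 to 7.19, overlapped them. Lyn per Ptprc was 0.810 ± 0.183, 1.77 ± 0.230, 1.43 ± 0.228 and 4.66 ± 2.65 in the same order of groups, and was highest in scivMSC. The scivMSC values of Lyn were 3.05, 7.72 and 3.22. Both 7.72 for Lyn and 7.19 for Fcer1g come from scivMSC replicate 2, where Ptprc was only 0.744 FPKM. Fcgr4 per Ptprc was 0.295 ± 0.0274, 1.65 ± 0.245, 0.642 ± 0.284 and 0.685 ± 0.0857, so that the DNCB mice stood above both MSC groups. Ptpn6 per Ptprc, between group means of 1.59 in scMSC and 2.44 in DNCB, overlapped between DNCB and each other group. By mean in the same order, Syk per Ptprc was 0.621, 1.11, 0.757 and 1.41, and Fcer2a per Ptprc 0.738, 0.0928, 0.154 and 0.224. Fcgr3 per Ptprc was 0.479, 2.56, 1.17 and 1.44, and Fcgr2b per Ptprc 0.129, 0.178, 0.110 and 0.122. The part of the cell type shifts given above in these ratios was not tested.

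The other genes of the pathway were taken from lists by role, and none is a member. Of 13 other Fc receptor genes, 12 were in the table and 4 passed the filter. After DNCB, relative to Solvent, 2 were called lower, where 4.87% of all genes tested were. These were Fcmr, the IgM receptor of lymphocytes, at -2.08 and Fcrla, a B cell protein, at -1.98. Fcrl1 at -0.78 and Fcgrt, the neonatal Fc receptor, at -0.69 were not called. Without the Solvent group Fcrla, Fcrl1 and Fcgrt would not have passed the filter. The alpha and beta chains of the high affinity IgE receptor, Fcer1a and Ms4a2, did not pass the filter, and in no library did either reach an FPKM of 1. Mean Fcer1a was 0.238 in Solvent, 0.635 in DNCB, 0.364 in scMSC and 0.185 in scivMSC, and mean Ms4a2 was 0.299, 0.893, 0.204 and 0.241. The 8 basophil, eosinophil and mast cell markers, which include both, summed to 1.51 to 2.76 FPKM in Solvent, 8.74 to 10.4 in DNCB, 1.17 to 4.13 in scMSC and 0.990 to 2.76 in scivMSC.

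The ITAM list leaves out Fcer1g and holds, besides ITAM chains, the receptors Gp6, Clec1b and Oscar. Of its 10 genes 9 passed the filter. In DNCB against Solvent 1 was called higher and 5 lower, where 15.6% and 4.87% of all genes tested were. Tyrobp (DAP12), the chain of myeloid and NK cell receptors, went from 25.3 ± 9.27 to 166 ± 30.6 FPKM (SD, n = 3), a log2 fold change of 2.71 and an edgeR adjusted p of 9.34e-05. The chains called lower belong to the antigen receptors of lymphocytes: Cd79a at -1.98, Cd79b at -1.96, Cd3e at -1.73, Cd3g at -1.51 and Cd247 at -1.35. Gp6 at 0.60 and Clec1b at 0.41, receptors of platelets, were not called. Tyrobp was the 1 gene of this list called in scMSC against DNCB, at -2.54, where 24.9% of all genes tested were called lower. TMM also called 5 of the 9 higher there, against 483 of all 5527 genes. Tyrobp was lower in scivMSC against DNCB as well, at -3.79. Gp6 and Clec1b had means in scMSC of 4.23 and 18.4 FPKM and in scivMSC of 5.05 and 18.5, against 3.18 and 12.5 in DNCB.

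The Src family list was divided. Between DNCB and Solvent 3 of 8 tested genes were called higher, where 15.6% of all genes tested were, among them the myeloid kinase Fgr at 2.81 and the adaptor Pag1 at 1.92. Another 3 were called lower, where 4.87% of all genes tested were: the lymphocyte kinases Blk at -2.11 and Lck at -1.28, and Fyn at -1.01. In scMSC against DNCB 4 of 8 were called lower, where 24.9% of all genes tested were, among them Fgr at -2.69, Pag1 at -1.91 and Ptprc at -1.03. TMM called 3 lower and 2 higher, against 681 and 483 of all 5527 genes. Lck at 0.48 and Blk at 0.37 were not called.

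Among the genes that act downstream of Syk, 23 of 26 were tested. In DNCB against Solvent 6 were called higher and 3 lower, where 15.6% and 4.87% of all genes tested were. Card9, the adaptor that links Syk to NF-kappaB, had a log2 fold change of 2.79, from 1.26 ± 0.177 to 8.78 ± 2.28 FPKM (SD, n = 3), and the docking protein Gab2 one of 1.93. Gab2 and Vav3 reached an FPKM of 1 in DNCB mice alone, and of the 6 called higher 3, these and Pik3cg, would not have passed the filter without that group. The genes called lower included the T cell kinase Zap70 at -1.33 and the phospholipase Plcg1 at -1.48. In scMSC against DNCB 12 of the 23 were called lower, where 24.9% of all genes tested were, with Card9 at -2.81 and the adaptor Grb2 at -1.85. With TMM the same comparison had 8 lower and 4 higher, against 681 and 483 of all 5527 genes. Without the DNCB mice 5 of the 23, Gab2, Lat2, Pik3cg, Prkcb and Vav3, would not have passed the filter. Their difference from DNCB is therefore not independent of it.

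Of the inhibitory receptors and effectors, 18 of 20 were tested. In DNCB against Solvent 8 were called higher and 2 lower, where 15.6% and 4.87% of all genes tested were. Siglece rose by 3.82 on the log2 scale, from 2.10 ± 0.715 to 29.7 ± 7.997 FPKM (SD, n = 3), and Cd300lf by 3.53, both of them inhibitory receptors of myeloid cells with docking sites for Ptpn6 and related phosphatases. Dok3, an inhibitory adaptor, rose by 1.87. The B cell inhibitory receptors Cd72 at -2.26 and Cd22 at -2.14 were called lower, and both passed the filter through the Solvent group. In scMSC against DNCB 7 of the 18 were called lower, where 24.9% of all genes tested were, with Siglece at -2.84, Cd300lf at -2.64 and Dok3 at -2.50. TMM called 7 lower and 1 higher, against 681 and 483 of all 5527 genes.

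Of the actin effectors that drive phagocytosis, 14 of 16 were tested. In DNCB against Solvent 6 were called higher (5 with TMM), where 15.6% of all genes tested were (16.1% with TMM). Pak1 at 2.65, Marcks at 2.65 and Rac2, a GTPase of blood cells, at 1.34 were among them, while Arpc2 at 0.92 and Cfl1 at 0.69 were not called. Pak1 reached an FPKM of 1 in the DNCB mice alone and would not have passed the filter without them, so its difference is not independent of the filter. In scMSC against DNCB 12 were called lower with total-count scaling and 3 with TMM, where 24.9% and 12.3% of all genes tested were. The list's median there was -1.30, against -0.63 over all genes tested.

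**Figure D5:**
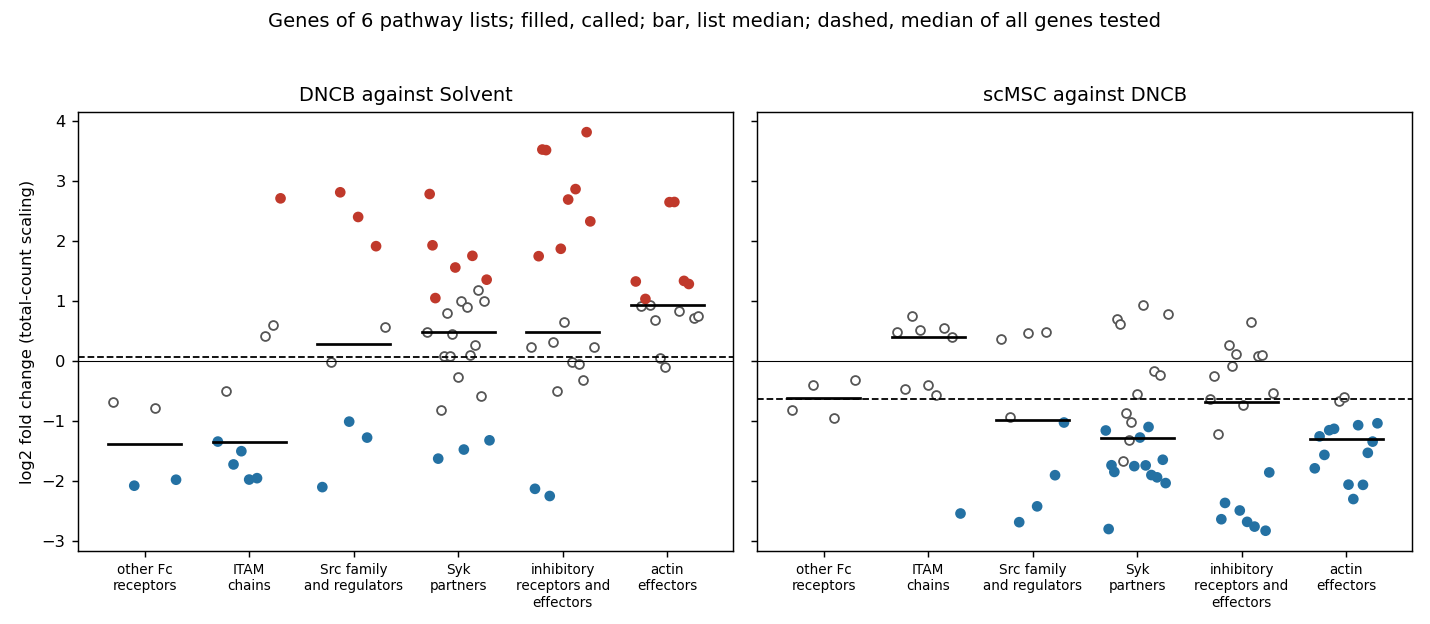
Log2 fold change with total-count scaling (y axis) of the genes of 6 pathway lists (x axis) in DNCB against Solvent and scMSC against DNCB; filled points were called, open points were not, bars are list medians and dashed lines the median of all genes tested. Between DNCB and Solvent the inhibitory list holds 8 genes called higher and 2 lower, and the ITAM list 1 higher and 5 lower, where 15.6% of all genes tested were called higher and 4.87% lower.

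The table assigns genes to KEGG pathways, and these lists were taken after its columns were seen. Of 84 genes under Fc gamma receptor phagocytosis, 4 of them members, 55 were tested. Against Solvent, 20 were called higher in DNCB and 1 lower, where 15.6% and 4.87% of all genes tested were. The median was 0.83 against 0.06 over all genes, and 3 of the 20 passed the filter through DNCB. In scMSC against DNCB 33 were called lower, where 24.9% of all genes tested were. TMM called 13 lower and 3 higher, where it called 681 and 483 of 5527 genes. In scivMSC against DNCB 46 were called lower, where 62% of all genes tested were. TMM called 19 lower and 6 higher, where it called 1043 and 1137 of 5527 genes. Of the 55, 8 would not have passed the filter without the DNCB mice, so their difference from DNCB is not independent of it. Of 61 genes under Fc epsilon RI signalling, 3 of them members, 37 were tested. In DNCB against Solvent 13 were called higher and 3 lower, where 15.6% and 4.87% of all genes tested were. Of the 13, 3 passed the filter through DNCB, and of the 3 called lower, 1 passed through Solvent. Between scivMSC and scMSC, 21 of the 55 phagocytosis genes were called lower with total-count scaling, where 30.4% of all genes tested were. TMM called 1 lower and 8 higher, where it called 4.92% and 13.1% of all genes.

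Fcgr2b, Fcgr4, Fcgr3 and Fcer1g lie within 276 kb of chromosome 1, from 170958617 to 171234365, with 10 other genes of the table between or over them. Of these 10 only Sdhc, a subunit of succinate dehydrogenase, and Pcp4l1 were tested. Sdhc stood at -0.27 and Pcp4l1 at 0.45 in DNCB against Solvent, and neither was called, against 2.67 to 3.05 for Fcer1g, Fcgr3 and Fcgr4. Genes listed on the other strand over Fcgr2b, Lyn and Ptpn6 reached at most 0.782 FPKM in any library, and whether counting used strand is not given in the sources used here.

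Genes with profiles most like those of the members were sought by Pearson's r of log2(FPKM + 1) over the 12 libraries, which differ in group and in the share of each cell type. Closest to Fcgr3 were Cd33, Fosl2 and Arrdc3 (r = 0.995 to 0.993), and to Fcgr4 Nlrp3, S100a11 and Tlr13 (0.989 to 0.988). Closest to Fcer1g were Aldh3b1, Casp4 and Rufy4 (0.990 to 0.987), and to Lyn Sdcbp, Alox5ap and Ctsd (0.989 to 0.985). Syk was nearest to Asxl1, Tbc1d15 and Arap1 (0.993 to 0.991), Ptpn6 to Msn, Grk2 and Rgl2 (0.996) and Fcgr2b to Sptlc2, Neat1 and Irf2 (0.993 to 0.989). Fcer2a was nearest to the B cell genes Pax5, Hvcn1 and Cd22 (0.991 to 0.978). Among the members themselves Fcgr3 and Fcgr4 were the closest pair (r = 0.984), followed by Fcer1g and Lyn (0.968), while Fcer2a had r of -0.10 to 0.50 with the other 7.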

How the data were processed

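Whole blood RNA was analysed in 12 libraries, 3 in each of 4 groups, with groups and replicate numbers taken from the labels. The authors deposited 1 table for all libraries with an estimated count and an FPKM value per gene and library. Per the labels, the submitters' processing notes name Bowtie 0.12.2, HISAT2 2.0, StringTie 1.3.0 and the build mm8. The coordinates do not carry a build name: of 5365 tested genes with a RefSeq symbol, 99.7% have a start or end within 5000 bases of that in GRCm38.p6, so they are printed as the table gives them, with no sequence. The deposited counts are whole numbers but were treated as estimated, since 29.0% of all values from 1 to 12 are exactly 4. Total estimated counts were 52179764 to 65139421 per library.

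Counts were tested with edgeR 4.0.16 (quasi-likelihood, R 4.3.3) over the 5527 genes that reached an FPKM of 1 in 3 or more libraries, in a single fit of 4 group means scaled by total counts. SE is that of the log2 fold change, from the fit's F statistic. Ratios between members were tested by exact permutation over the libraries, two-sided, and adjusted over 3 ratios. Alternatives were TMM scaling, DESeq2 1.42.0, limma 3.58.1 on log2(FPKM + 1) or log2(FPKM + 0.1), haemoglobin left out, no filter, a mean FPKM of at least 5, a fit of the 6 libraries compared, a replicate block, and each library left out in turn. The test was checked on simulated counts. The p-values of the main fit rest on an estimate of spread shared by all 4 groups, with 3 libraries per group, so each comparison depends also on the other groups. Those of the ratios come from reassigning the 12 libraries to groups.

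The members and gene lists were chosen with earlier results of these data known. Named genes are the members, Ptprc, per pathway list the 3 most abundant and the 2 with the largest and smallest change in DNCB against Solvent, and the 3 genes most correlated with each member. Others are named where a count of 5 or fewer refers to them, and were picked after their values were seen. Some genes of the pathway lists are counted but not reported here by name.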

Additional observations from a re-analysis of the deposited data

Results flagged for a closer look

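In scivMSC against scMSC, which tests whether the effects of the 2 routes against DNCB differ, 4 members passed the threshold in edgeR with total-count scaling. The log2 fold changes were -1.48 for Ptpn6, -1.45 for Fcgr4, -1.42 for Fcgr2b and -1.29 for Fcgr3, where the median of all genes tested was -0.87. With TMM scaling they were -0.64, -0.61, -0.59 and -0.47 and none passed, with edgeR adjusted p of 0.0443 for Ptpn6, 0.138 for Fcgr4, 0.129 for Fcgr2b and 0.162 for Fcgr3. Ptpn6 was under 0.05 there but below 2-fold. The summed neutrophil, monocyte and B cell markers of the 2 groups are 543 to 692, 85.7 to 95.6 and 13.5 to 18.8 FPKM in scMSC and 221 to 664, 80.7 to 112 and 3.43 to 8.13 FPKM in scivMSC, and their part in these differences was not tested. The monocyte sums are mostly Lyz2, and by group mean the other monocyte markers except F13a1 were lower in scivMSC than in scMSC.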

How the results depend on the processing

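Of 48 pairs of a member and a comparison, tested under 21 alternatives, 882 of 996 fold changes kept their direction and their side of the threshold, 67 lost the call, 10 gained one and 37 changed sign; the causes were not tested. In DNCB against Solvent the count of members called stayed at 6 without any 1 library and within 5 to 7 over all alternatives. TMM and DESeq2 scaling gave 4 and 4 members in place of 7 in scMSC against DNCB, 5 and 5 in place of 8 in scivMSC against DNCB, 0 and 0 in place of 4 between scivMSC and scMSC, and 3 and 3 in place of 1 in scMSC against Solvent. The counts in scivMSC against Solvent were 3 and 3 in place of 4.

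A mean FPKM of at least 5, which leaves 6 members, gave 1 between scivMSC and scMSC, and against Solvent it gave 0 for scMSC and 2 for scivMSC. Limma with a pseudocount of 1 gave 2 in scivMSC against scMSC and 2 in scivMSC against Solvent, and the fit of the 6 libraries compared gave 0 in scivMSC against scMSC. Without 1 library at a time the counts ran from 0 to 5 in scivMSC against scMSC and from 0 to 1 in scMSC against Solvent. The adjusted exact permutation p of the Fcer1g to Syk ratio over the 4 groups ran from 0.00039 to 0.0179 under pseudocounts of 0.1 and 1 and without any 1 library, and those of the other two ratios stayed inside this range.

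The following log2 fold changes were positive with TMM and DESeq2 and negative with total counts. For scivMSC against Solvent they were 0.82 and 0.84 for Fcgr3, 0.52 and 0.54 for Fcgr4, 1.10 and 1.13 for Fcer1g, and 0.41 and 0.43 for Syk. Between scivMSC and scMSC they were 0.51 and 0.55 for Fcer1g, 0.042 and 0.073 for Syk, and 0.77 and 0.81 for Lyn. Between scMSC and Solvent they were 0.58 and 0.58 for Fcer1g and 0.37 and 0.36 for Syk. Against DNCB they were 0.34 and 0.31 for Fcer2a in scMSC, 0.043 and 0.055 for Fcer2a in scivMSC, and 0.12 and 0.11 for Lyn in scivMSC.

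With haemoglobin left out, Fcer1g was at 0.23 and Syk at 0.022 in scMSC against Solvent, and Fcer2a at 0.015 in scMSC against DNCB. Fcer1g in scMSC against Solvent was at 0.10 and 0.12 in limma with pseudocounts of 1 and 0.1, and ran from -0.33 to 0.30 without 1 library. Without 1 library, Fcer2a in scMSC against DNCB ran from -1.09 to 0.12 (without DNCB replicate 2), Syk in scMSC against Solvent from -0.44 to 0.052 (without Solvent replicate 1), and Lyn in scivMSC against Solvent from -0.094 (without Solvent replicate 3; -0.016 without scivMSC replicate 1) to 0.36.

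The replicate numbers were not treated as a pairing of the samples. Of 18 same-number pairs 3 had a correlation of their deviations over 0.1, in a range from -0.20 to 0.17. However, 8 of 12 libraries correlated best with their own number, a hint of pairing from the data and not from the design. A replicate block gave 0 members in place of 1 in scMSC against Solvent, put Fcer1g there at 0.039, and changed no other count of members.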
